A study of Mus musculus with 24 samples.

Results

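The urokinase receptor system was followed in cultured mouse CD8+ T cells through 3 of 23366 genes measured: Plaur, the urokinase receptor, Lrp1, an endocytic receptor that binds it, and Plau, the urokinase itself. The 3 genes were listed by name. Plaur was chosen by its measured response to dexamethasone (Dex), which was very large, so the Dex responses of wild-type cells are given for Plaur and Lrp1 as descriptions, with no test. All 3 genes were present in both deposited tables for all 24 libraries, but only Plaur and Lrp1 passed the filter on low counts.

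Urokinase is a secreted serine protease that turns plasminogen into plasmin. Its receptor is held in the outer membrane by a lipid anchor, belongs to the Ly6 and uPAR protein family, and places that proteolysis on the cell surface. Having no part inside the cell, it works with integrins and other transmembrane partners. LRP1 takes up the receptor together with inhibited urokinase and returns the receptor to the surface, besides taking up many unrelated ligands. In T cells the receptor is known as a molecule of activated and migrating cells. Dexamethasone is a synthetic glucocorticoid that activates the receptor encoded by Nr3c1, and IL27 is a cytokine that signals through STAT proteins.

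RNA was sequenced from 1000 sorted cells per library, 3 libraries in each of 8 groups. Naive CD8+ CD62L-high CD44-negative cells of the C57BL/6 strain were activated by anti-CD3 and anti-CD28, 1 µg/ml of each antibody. At day 3 the groups were cKO Dex, cKO Ctrl, WT Dex and WT Ctrl, with Dex at 10 nM for the 3 days. The cKO cells carried Nr3c1 fl/fl and E8i-Cre, a Cre driven by a CD8 enhancer, and the WT cells of day 3 carried the same floxed gene without Cre. At day 9 the groups were Dex+IL27, Dex, IL27 and Ctrl, all from wild-type cells that were stimulated for 3 days, rested for 3 days in IL2 at 5 ng/ml and restimulated for 3 days with 10 nM Dex, 25 ng/ml IL27, both or neither. Nothing in the labels tells if the 3 libraries of a group were grown from different mice or wells, and the p-values therefore speak only of the spread among these libraries, which may be technical. Day, restimulation and the floxed gene changed together and cannot be told apart in any level set across days.

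The libraries held 14221883 to 19018440 estimated counts each. Nr3c1 had 5.32 to 8.196 CPM (read counts scaled to a common library size) in the 6 cKO libraries and 14.9 to 21.4 CPM in the 6 WT libraries of day 3, with no overlap, and gene-level counts cannot separate the floxed part from the rest of the gene. All 8 CD8 T cell markers (Cd3d, Cd8a and others) were detected in every library and together reached 2012 to 3090.3 CPM. Of the 14 macrophage and monocyte markers measured, Ctss (64.4 to 151 CPM) and Cd68 (1.55 to 14.9 CPM) carried nearly all of the signal, and the other 12 together stayed at 0.202 to 1.89 CPM. The neutrophil marker Cxcr2 had 15.3 to 68.0 CPM. The 8 other neutrophil markers together had 0.637 to 1.99 CPM, with S100a8, Retnlg and Camp at 0 counts. Markers of other cell types were not all absent. Zbtb46 (dendritic cell) had 4.29 to 21.1 CPM, Cd79b (B cell) 6.26 to 20.7 CPM and Pecam1 (endothelium) 7.46 to 37.7 CPM. Of the CD4 T cell markers, Zbtb7b had 3.60 to 18.9 CPM, and Cd40lg and Foxp3 reached 13.6 and 8.57 CPM. The erythroid marker Hbb-b1 reached 4.81 CPM.

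Plaur ranged over the 8 groups from near the detection floor to the upper part of the transcriptome, and Dex marked its 2 highest groups. Its levels in CPM, scaled by the trimmed mean of M values (TMM) over all 24 libraries, were 19.1, 15.7 and 18.9 in the cKO Dex libraries and 16.9, 18.4 and 15.5 in the cKO Ctrl libraries. They were 139, 148 and 132 in the WT Dex libraries of day 3 and 14.5, 16.5 and 14.9 in the WT Ctrl libraries of day 3. At day 9 they were 17.5, 15.2 and 14.2 with Dex+IL27, 107.6, 108.9 and 109.2 with Dex, 0.24, 0.12 and 0.05 with IL27, and 3.27, 2.06 and 2.60 in Ctrl. The 6 WT libraries that received Dex alone stood above the other 18, from which nothing is read, because the Dex response chose Plaur. The 3 IL27 libraries held only 4, 2 and 1 counts of Plaur.

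Ordered by mean, Plaur was highest in WT Dex of day 3 (140 ± 7.95 CPM, SD, n = 3) and next in Dex of day 9 (108.6 ± 0.878 CPM), and the libraries of those groups did not overlap. Then came cKO Dex, cKO Ctrl, Dex+IL27 and WT Ctrl of day 3, at means of 17.9, 16.9, 15.6 and 15.3 CPM, where each group overlapped its neighbour in the order. Ctrl of day 9 (2.64 ± 0.605 CPM) and IL27 (0.137 ± 0.0919 CPM) stood apart below them. On the per-length scale of the authors' FPKM values, Plaur ranked 818 of 23366 genes in WT Dex of day 3, 1023 in Dex of day 9, 8840 in Ctrl of day 9 and 12989 in IL27. In bulk RNA, a change in the number of cells that express a gene and a change in its RNA per cell cannot be told apart.

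**Figure D1:**
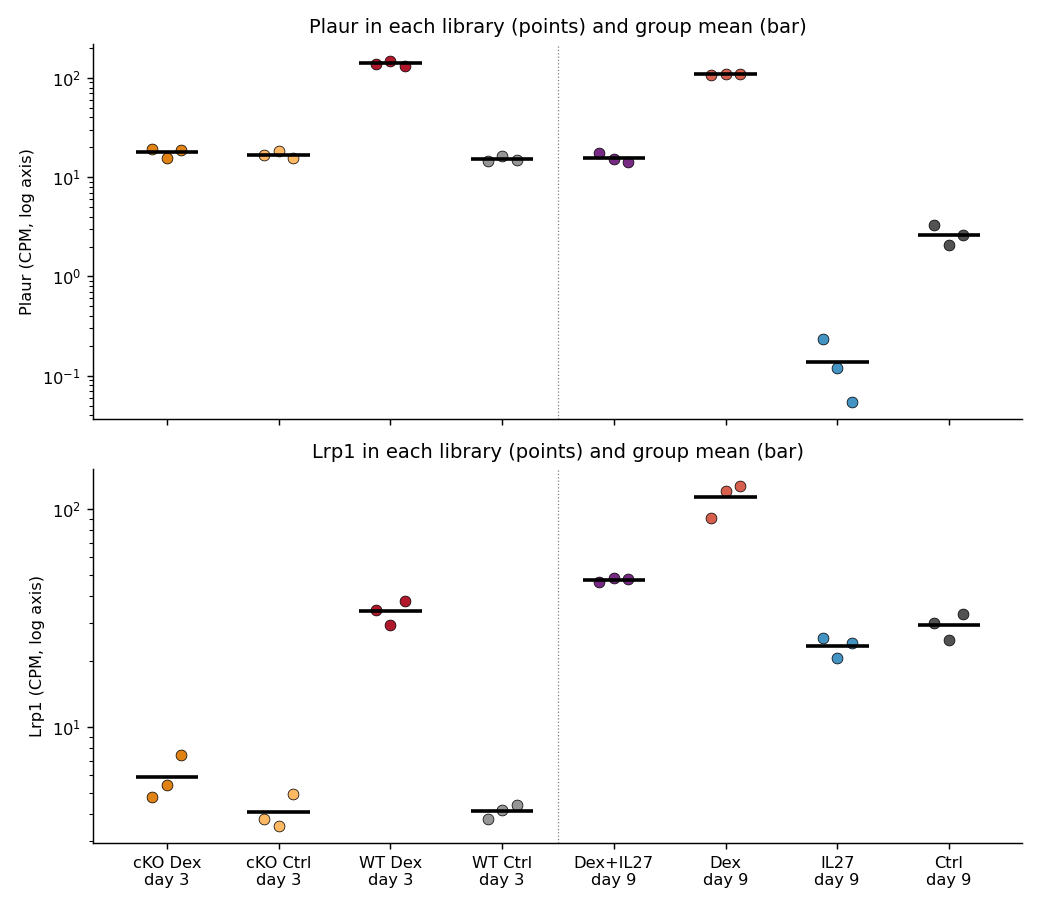
Plaur (upper panel) and Lrp1 (lower panel) in CPM on log axes, 1 point for each of 24 libraries and a bar at the group mean, with day 3 groups left of the dotted line and day 9 groups right of it. Plaur was near 140 CPM in WT Dex of day 3 and 108.6 CPM in Dex of day 9, while the 6 cKO libraries lay between 15.5 and 19.1 CPM and Lrp1 was higher in all 12 day 9 libraries than in the 9 day 3 libraries outside WT Dex.

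The groups came in a different order for Lrp1. Its levels were 4.79, 5.42 and 7.48 CPM in the cKO Dex libraries, 3.80, 3.50 and 4.94 CPM in cKO Ctrl, 34.4, 29.6 and 37.96 CPM in WT Dex of day 3 and 3.80, 4.16 and 4.37 CPM in WT Ctrl of day 3. At day 9 it had 46.5, 48.4 and 47.5 CPM with Dex+IL27, 91.3, 121.6 and 127.7 CPM with Dex, 25.7, 20.7 and 24.4 CPM with IL27, and 30.1, 24.99 and 32.96 CPM in Ctrl. The 9 day 3 libraries outside WT Dex all lay below 8 CPM, and all 12 day 9 libraries lay above 20 CPM, as did the 3 WT Dex libraries of day 3. Within a day both genes moved together: the Pearson correlation of their log2(CPM + 1) values was 0.98 over the 12 libraries of day 3 and 0.97 over the 12 of day 9, but 0.24 over all 24. These are descriptions, since the libraries of a day fall into 4 groups and share the Dex response.

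By mean, Lrp1 was highest in Dex of day 9 (114 ± 19.5 CPM, SD, n = 3), followed by Dex+IL27 (47.5 ± 0.971 CPM) and WT Dex of day 3 (33.95 ± 4.22 CPM), each separate from the one above it. WT Dex of day 3 overlapped Ctrl of day 9 (29.3 ± 4.03 CPM), which overlapped IL27 (23.6 ± 2.60 CPM). The cKO Dex group (5.90 ± 1.41 CPM) lay below these and just above WT Ctrl of day 3 (4.11 ± 0.287 CPM), which overlapped cKO Ctrl (4.08 ± 0.761 CPM). The Lrp1 gene overlaps the antisense gene Gm16217, and since the library protocol does not mark strand, reads from the overlap cannot be assigned to either gene.

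Plau was barely detected. The 24 libraries held 37 Plau counts in all, 10 libraries had at least 1, and 10 of the 37 counts came from cKO Dex replicate 6. The group sums over 3 libraries were 11 counts in cKO Dex, 4 in cKO Ctrl, 4 in WT Dex and 0 in WT Ctrl of day 3, and 3 in Dex+IL27, 3 in Dex, 2 in IL27 and 10 in Ctrl of day 9. The count of 0 in WT Ctrl allows up to 0.0660 CPM (3 counts of the group's total), and its exact 95% Poisson upper limit was 0.0811 CPM, beside 0.133 to 0.385 CPM in the other 7 groups. Such limits cover counting error only, because amplified reads were counted without molecular identifiers. Plau did not pass the filter on low counts. Without the filter, edgeR's quasi-likelihood test gave it Benjamini-Hochberg adjusted p-values of 0.397 for WT Dex against WT Ctrl at day 3 and 0.501 for Dex against Ctrl at day 9, and at this depth no difference between groups was detectable.

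The RefSeq sequences (GRCm38.p6) of the 250 bases before the annotated start of the receptor and of its endocytic partner are shown because both genes had higher levels in WT cells with Dex on both days, and so that a reader can see which short motifs lie there. The deposited data use the mm9 build, and these coordinates are of GRCm38.p6 only. Capitals mark every match, on either strand, to 5 motifs: the full glucocorticoid response element (TGTTCT after its reverse complement, with any 3 bases between them), TGTTCT alone (its single-site form, which lies within the full element), TGANTCA (AP-1), GGGCGG (Sp1) and GGGANTTCC (NF-kB).
Plaur, chr7:24462233-24462482, plus strand: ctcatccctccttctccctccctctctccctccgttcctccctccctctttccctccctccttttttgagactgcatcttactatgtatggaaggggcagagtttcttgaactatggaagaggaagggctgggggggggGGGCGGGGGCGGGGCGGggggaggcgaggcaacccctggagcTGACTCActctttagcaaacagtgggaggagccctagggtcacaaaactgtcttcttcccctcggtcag
Lrp1, chr10:127621149-127621398, minus strand: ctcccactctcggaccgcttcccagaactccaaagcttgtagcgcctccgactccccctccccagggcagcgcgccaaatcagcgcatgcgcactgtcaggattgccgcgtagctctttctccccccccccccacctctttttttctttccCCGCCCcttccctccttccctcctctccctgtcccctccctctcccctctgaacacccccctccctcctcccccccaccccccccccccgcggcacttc
The Plaur window held an AP-1 match, TGACTCA, whose first base lies at -69 from the start site, and Sp1 matches at -111, -105 and -100. The Lrp1 window held 1 Sp1 match, written CCGCCC on this strand, at -99. Neither window held the full or the single-site glucocorticoid motif or the NF-kB motif, which says only that these letters are not in these windows. Among 32851 RefSeq windows of the same length, 6.749% held the AP-1 motif, 32.74% the Sp1 motif, 16.08% the single-site glucocorticoid motif, 1.431% the NF-kB motif and 3 windows (0.009132%) the full glucocorticoid element.

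The day 3 groups ask whether the response to Dex needs Nr3c1 in the CD8+ T cells. In WT cells Plaur averaged 140 CPM with Dex and 15.3 CPM in Ctrl, a log2 fold change of 3.20 ± 0.09 (SE of the fit), or 9.17-fold. Lrp1 averaged 33.95 CPM with Dex and 4.11 CPM in Ctrl, 3.05 ± 0.17 on the log2 scale, or 8.29-fold. On log2(FPKM + 1), which compresses low values, Lrp1's change was 1.36. Among 11967 genes tested these changes were the 13th and 16th highest. The members' libraries did not overlap between the groups, but nothing is read from this, because the response chose Plaur. In the same comparison 9.43% of genes passed the test (4.93% higher and 4.5% lower).

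In cKO cells no such response of Plaur was detectable. Plaur averaged 17.9 ± 1.93 CPM with Dex and 16.9 ± 1.44 CPM in Ctrl (SD, n = 3 each), and the libraries overlapped. Its log2 fold change was 0.08 ± 0.10, with an adjusted p of 1.00 by edgeR's quasi-likelihood test. The 95% interval of the fold, 0.918 to 1.22, bounds the Dex response of Plaur in cKO cells far below the 9.17-fold difference seen in WT cells. Lrp1 averaged 5.90 ± 1.41 CPM with Dex and 4.08 ± 0.761 CPM in Ctrl, a log2 fold change of 0.53 ± 0.19 that missed the threshold after adjustment (unadjusted p = 0.0110, edgeR adjusted p = 1.00). The interval of that fold was 1.10 to 1.90. The highest of the 6 cKO values for Lrp1 came from cKO Dex replicate 6, the library with 10 Plau counts. It had the highest Nr3c1 of the cKO Dex libraries (8.18 CPM). In cKO Ctrl replicate 5, Nr3c1 was at 8.196 CPM and Lrp1 at its lowest, 3.50 CPM. A link between the levels of Nr3c1 and Lrp1 was not tested. Without cKO Dex replicate 6 the log2 fold change of Lrp1 was 0.32 ± 0.19 (edgeR adjusted p = 0.879). In this comparison edgeR called 0 of 11967 genes (0%), with 399 at an unadjusted p under 0.05, and DESeq2 and limma also called 0. Without the low-count filter edgeR called 26.

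Put as a difference of Dex effects, cKO minus WT, Plaur had -3.12 ± 0.13 and Lrp1 -2.52 ± 0.26 on the log2 scale (-1.23 for Lrp1 on log2(FPKM + 1)). These were the 14th and 29th lowest of 11967 genes, of which 2.95% passed (1.38% positive and 1.57% negative), and both contain the WT response that chose Plaur. Without Dex, genotype made no detectable difference to either gene. Plaur averaged 16.9 CPM in cKO Ctrl and 15.3 CPM in WT Ctrl (log2 fold change 0.15 ± 0.10, 95% interval -0.06 to 0.36, edgeR adjusted p = 0.489), and Lrp1 averaged 4.08 CPM in cKO Ctrl and 4.11 CPM in WT Ctrl (0.00 ± 0.20, interval -0.42 to 0.41, edgeR adjusted p = 0.994). That comparison uses the same WT Ctrl libraries as the WT response. In it 2.36% of genes passed (1.38% higher and 0.986% lower), 58.3% of them higher in cKO cells, or 35.3% of them when libraries were scaled by their totals.

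The day 9 groups ask what Dex and IL27, alone and together, do to restimulated cells. Dex alone gave 108.6 CPM of Plaur against 2.64 CPM in Ctrl, a log2 fold change of 5.33 ± 0.15, or 40.1-fold. By counts this was 5092 against 143 over 3 libraries each, a ratio of 38.7 per total count (exact 95% interval 32.8 to 46.1, counting error only). Lrp1 averaged 114 CPM with Dex and 29.3 CPM in Ctrl, 1.92 ± 0.13 on the log2 scale, or 3.79-fold. Plaur's change was the 22nd highest and Lrp1's the 397th highest of 12320 genes, in a comparison where 55.6% of genes passed (28.2% higher and 27.4% lower). As at day 3, these values are a description.

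How the Dex response compared between days depended on the scale for both genes. With the day 3 effect of Dex subtracted from the day 9 effect, Plaur had 2.16 ± 0.17 and Lrp1 -1.09 ± 0.22 on the log2 scale, in a fit of all 24 libraries where 39.6% of 12666 genes passed (20.4% positive and 19.2% negative). In level the order was the other way round: Dex added 105.9 CPM of Plaur at day 9 and 124.7 CPM at day 3, and 84.2 CPM of Lrp1 at day 9 and 29.8 CPM at day 3. The levels of Plaur with Dex were 108.6 CPM at day 9 and 140 CPM at day 3, and its Ctrl levels were 2.64 CPM at day 9 and 15.3 CPM at day 3. For Lrp1 the levels with Dex were 114 CPM at day 9 and 33.95 CPM at day 3, and the Ctrl levels were 29.3 CPM at day 9 and 4.11 CPM at day 3. The sign for Lrp1 also turned on log2(FPKM + 1), where the difference was 0.14.

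**Figure D2:**
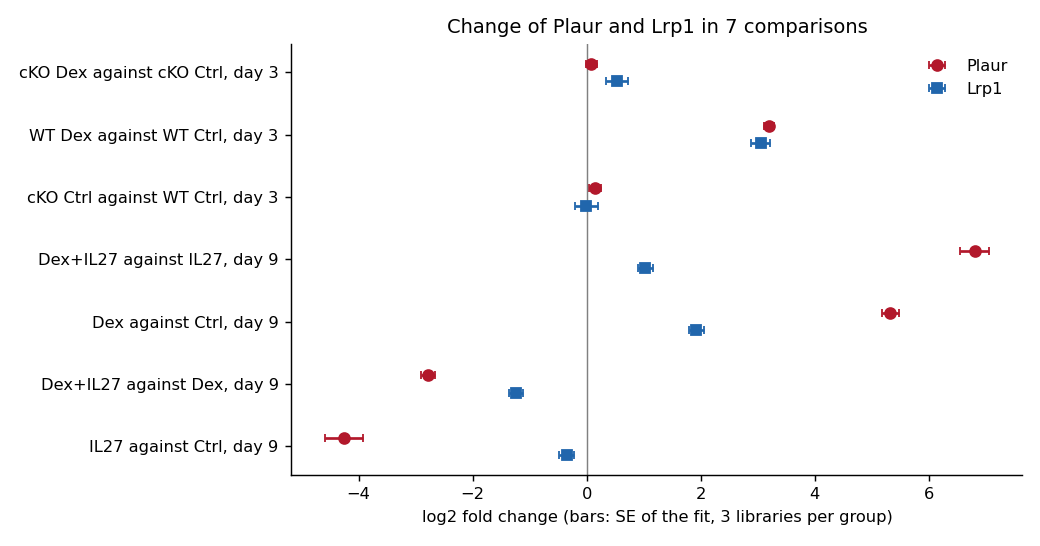
Log2 fold changes of Plaur (red circles) and Lrp1 (blue squares) in 7 comparisons, with bars for the SE of the edgeR fit and 3 libraries per group. With Dex at day 3 the values were 3.20 for Plaur and 3.05 for Lrp1 in WT cells. In cKO cells they were 0.08 for Plaur and 0.53 for Lrp1. At day 9 IL27 lowered Plaur by itself (-4.26) and on top of Dex (-2.78).

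IL27 alone lowered Plaur. Its mean was 0.137 ± 0.0919 CPM with IL27 and 2.64 ± 0.605 CPM in Ctrl (SD, n = 3 each). All 3 IL27 libraries lay below all 3 Ctrl libraries, but the share of all genes that separate in this way was not counted. The fitted log2 fold change was -4.26 ± 0.34 (edgeR adjusted p = 1.1e-07), the 24th lowest of 12320 genes, of which 57.4% passed (29.3% higher and 28.1% lower). With only 7 counts in the IL27 group against 143 in Ctrl, the size is loosely fixed: the count ratio of Ctrl over IL27 was 21.0, with an exact 95% interval of 9.95 to 53.3, and limma on log2(FPKM + 1) gave -1.41, also past the threshold. The IL27 comparison uses the Ctrl libraries that also enter the Dex response.

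For Lrp1 the IL27 effect was small and its call was unstable. Lrp1 averaged 23.6 ± 2.60 CPM with IL27 and 29.3 ± 4.03 CPM in Ctrl (SD, n = 3 each), with overlapping libraries, a log2 fold change of -0.35 ± 0.13 (edgeR adjusted p = 0.0329). The call was lost without Ctrl replicate 1 (adjusted p = 0.0726), without Ctrl replicate 3 (0.150), without IL27 replicate 2 (0.116) and without IL27 replicate 3 (0.0558). It was also lost in limma on log2(FPKM + 1), with an adjusted p of 0.107. Over all alternatives run the adjusted p ranged from 0.00368 to 0.190 and the change from -0.46 to -0.23, always lower with IL27.

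Both genes also had higher levels with Dex in the presence of IL27. This too is a Dex response of wild-type cells, the kind of response that Plaur was chosen for, so its values are a description. Plaur averaged 15.6 ± 1.72 CPM with Dex+IL27 and 0.137 ± 0.0919 CPM with IL27 (SD, n = 3 each), a log2 fold change of 6.81 ± 0.26 that was the 5th highest of 12320 genes. The counts were 783 against 7, a ratio of 113 with an exact 95% interval of 54.7 to 283, and limma on log2(FPKM + 1) gave 3.45. Lrp1 averaged 47.5 ± 0.971 CPM with Dex+IL27 and 23.6 ± 2.60 CPM with IL27, a log2 fold change of 1.03 ± 0.13. Libraries did not overlap for either gene, but nothing is read from this, because the share over all genes was not counted. In this comparison 26.1% of genes passed (11.7% higher and 14.3% lower). Of the passing genes 45.0% were higher with Dex+IL27, or 33.6% when libraries were scaled by their totals.

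Adding IL27 to Dex lowered both genes. Plaur averaged 15.6 ± 1.72 CPM with Dex+IL27 and 108.6 ± 0.878 CPM with Dex (SD, n = 3 each), a log2 fold change of -2.78 ± 0.12 (edgeR adjusted p = 1.8e-09). Lrp1 averaged 47.5 ± 0.971 CPM with Dex+IL27 and 114 ± 19.5 CPM with Dex, -1.24 ± 0.13 on the log2 scale (edgeR adjusted p = 9.7e-06). Every Dex+IL27 library lay below every Dex library for both genes, but the share of all genes that separate in this way was not counted. The comparison uses the Dex libraries of the Dex response that Plaur was chosen for. A gene chosen so is more likely to lie lower in the other group, and Plaur's p-value is not free of that choice. In this comparison 32% of genes passed (14.9% higher and 17.1% lower). Of the passing genes 46.5% were higher with Dex+IL27, or 34.6% when libraries were scaled by their totals. Plaur was higher with Dex+IL27 than in Ctrl, with 783 counts against 143 and a ratio of 5.39 (exact 95% interval 4.50 to 6.48, counting error only). That ratio is a description, because it sets cells with Dex against the Ctrl libraries of the response that chose Plaur.

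Whether IL27 made the Dex response of Plaur larger or smaller depended on the scale. On the log2 scale of the count fit, the Dex effect with IL27 minus that without was 1.48 ± 0.43 for Plaur and -0.89 ± 0.18 for Lrp1. In level, Dex added 15.5 CPM of Plaur with IL27 present and 105.9 CPM without it, and it added 23.9 CPM of Lrp1 with IL27 present and 84.2 CPM without it. On log2(FPKM + 1) the difference for Plaur turned to -1.29, and on log2(FPKM + 0.1) it was 0.61. The positive value rests on the 7 counts of the IL27 group, and it was 2.09 without IL27 replicate 1 and 1.10 without IL27 replicate 3. In this contrast, which contains the Dex response, 28.5% of genes passed.

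Per unit of transcript length, the balance of the receptor and its partner differed between days. Plaur averaged 12.9 FPKM in cKO Dex, 12.2 in cKO Ctrl, 101 in WT Dex and 11.1 in WT Ctrl at day 3, and 10.97 with Dex+IL27, 76.8 with Dex, 0.0933 with IL27 and 1.93 in Ctrl at day 9. Lrp1, whose transcript is much longer, averaged 0.400 FPKM in cKO Dex, 0.277 in cKO Ctrl, 2.30 in WT Dex and 0.280 in WT Ctrl at day 3, and 3.13 with Dex+IL27, 7.53 with Dex, 1.55 with IL27 and 1.997 in Ctrl at day 9. The ratio of Plaur to Lrp1 in FPKM averaged 33.5 ± 8.56 in cKO Dex, 45.5 ± 10.9 in cKO Ctrl, 44.6 ± 8.25 in WT Dex and 39.8 ± 3.66 in WT Ctrl at day 3 (SD, n = 3 each). At day 9 it averaged 3.51 ± 0.444 with Dex+IL27, 10.4 ± 1.88 with Dex, 0.0595 ± 0.0351 with IL27 and 0.964 ± 0.176 in Ctrl. Plaur exceeded Lrp1 in every library of day 3 and in every day 9 library that received Dex, had ratios on both sides of 1 in Ctrl of day 9 (0.844 to 1.17), and was below Lrp1 in all 3 IL27 libraries. At day 3 the ratios of WT Dex and WT Ctrl overlapped, while at day 9 all 3 Dex libraries had a higher ratio than any Ctrl library. Nothing is read from that separation, because the ratio contains the Dex response that chose Plaur.

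**Figure D3:**
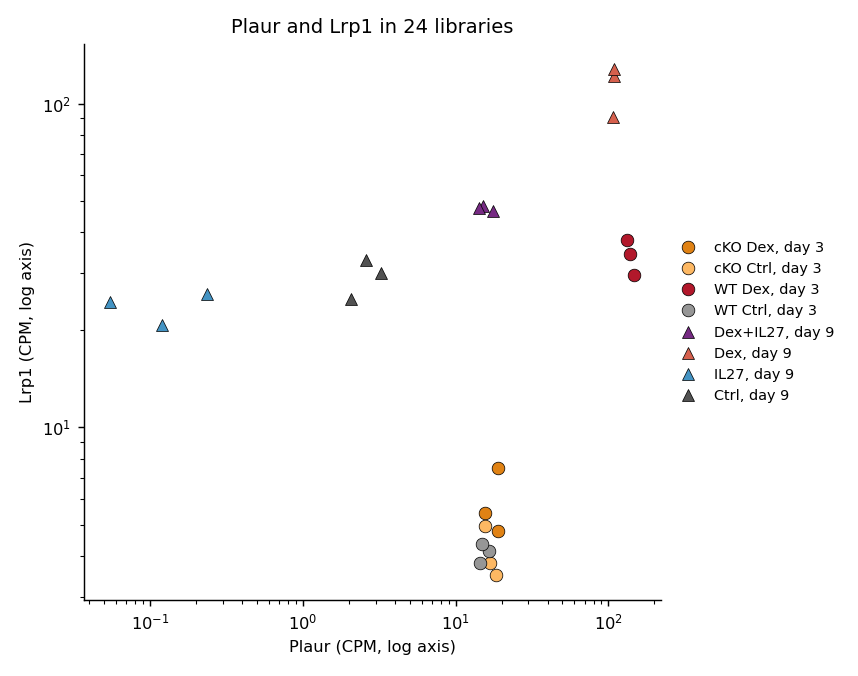
Lrp1 against Plaur in CPM on log axes for 24 libraries, with circles for day 3 and triangles for day 9. The day 3 libraries other than WT Dex form a group at about 15 to 19 CPM of Plaur and below 8 CPM of Lrp1, and the day 9 libraries line up from IL27 through Ctrl and Dex+IL27 to Dex, with Lrp1 at 20.7 CPM or above.

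Genes with levels most like those of Plaur were sought among 8844 genes that reached a mean of 10 CPM in at least 1 group, by Pearson correlation of log2(CPM + 1) over the 24 libraries. The 6 closest were Ctla4 (0.96), Znrf3 (0.93), Fam53b (0.92), Irgc1 (0.92), Mfhas1 (0.92) and Amica1 (0.91). The libraries fall into 8 groups, so these values describe shared group levels. Ctla4, an inhibitory receptor of T cells, had a mean of 448 CPM in WT Dex of day 3, 220.6 CPM in WT Ctrl of day 3, 377 CPM in Dex of day 9 and 178 CPM in Ctrl of day 9. Relative to its own highest group, though not in CPM, Irgc1 had the range closest to Plaur's among the 6. It had 9.97 CPM in WT Dex and 0.916 CPM in WT Ctrl of day 3. At day 9 it had 10.8 CPM in Dex and 0.0553 CPM in Ctrl, and it was at 0 counts with IL27. Amica1, which encodes the adhesion molecule JAML, had 117 CPM in WT Dex and 31.4 CPM in WT Ctrl of day 3.

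For Lrp1 the 4 closest genes were Napsa (0.97), Id2 (0.96), Me1 (0.96) and Atp2b4 (0.96), and 2 of the 4 were also among the closest 4 when FPKM was used. Napsa, an aspartic protease, had 82.6 CPM in Dex of day 9 and 15.02 CPM in Ctrl of day 9, and Id2, an inhibitor of helix-loop-helix transcription factors, had 296 CPM in Dex and 166 CPM in Ctrl of day 9. For Plau the closest were Chtop (0.63), Pcyt2 (0.60), Apeh (0.60) and Gins3 (0.55), and with 14 of 24 libraries at 0 counts of Plau no pattern is read from them.

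**Figure D4:**
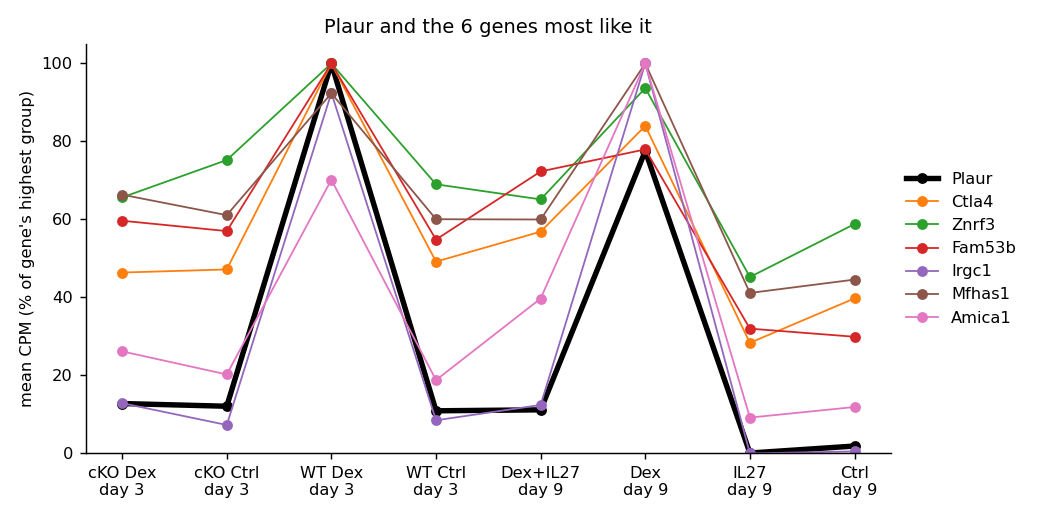
Mean CPM of Plaur (black) and of the 6 genes most like it, as a percent of each gene's highest group, in 8 groups of 3 libraries. Plaur and Irgc1 were close to 0 in IL27 and Ctrl of day 9, while Ctla4, Znrf3, Fam53b and Mfhas1 kept 20% or more of their highest level in every group.

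Other genes of the pathway were taken from 6 lists holding 116 genes, 115 of them in the tables, on plasminogen activation, urokinase receptor partners, the Ly6 and uPAR protein family, the LDL receptor family, LRP1 ligands, and LRP1 adaptors and processing. In WT Dex against WT Ctrl at day 3, 64 of them were tested, 7 passed as higher and 6 as lower, against 9.43% of all genes, and their median log2 fold change was 0.01, as over all genes. In cKO Dex against cKO Ctrl none of the 64 passed, and 2 had an unadjusted p under 0.05. In the difference of Dex effects 5 of the 64 passed as higher and 3 as lower, where 1.38% of all genes passed as higher and 1.57% as lower. In cKO Ctrl against WT Ctrl only Anxa2 passed (0.31 ± 0.05, edgeR adjusted p = 0.00539), where 2.36% of all genes passed.

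At day 9, 69 of the listed genes were tested. With Dex against Ctrl 25 passed as higher and 14 as lower, with IL27 against Ctrl 22 and 16, with Dex+IL27 against IL27 9 and 19, and with Dex+IL27 against Dex 11 and 18. The shares of all genes passing were 55.6%, 57.4%, 26.1% and 32% in the same order, and the medians of the listed genes were 0.16, 0.10, -0.01 and -0.07 on the log2 scale, beside 0.03, 0.03, 0.00 and 0.00 over all genes. None of the other tested genes in the lists reached Plaur's change in WT Dex at day 3 or in Dex at day 9.

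**Figure D5:**
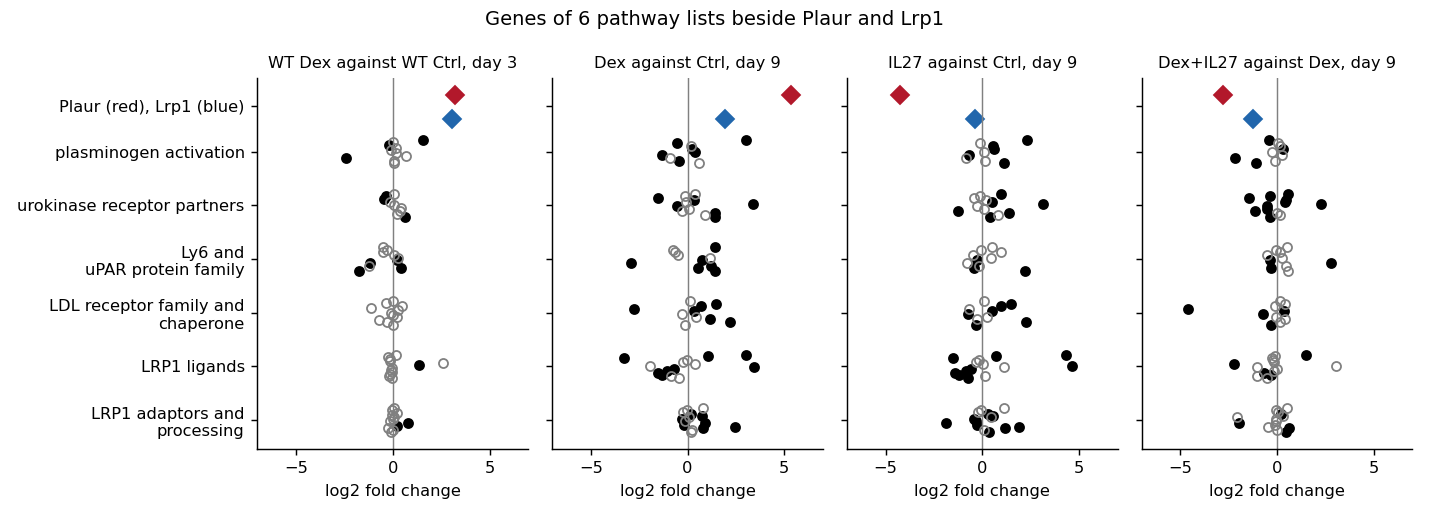
Log2 fold changes of the tested genes of 6 pathway lists in 4 comparisons, with filled points for genes that passed at an adjusted p under 0.05 and open points for the rest, and with Plaur (red) and Lrp1 (blue) as diamonds in the top row. At day 9 the lists spread to both sides of 0, and Plaur lay at 5.33 with Dex and at -4.26 with IL27.

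Of the plasminogen activation genes, urokinase's substrate and close relatives were at or near 0: Plg had a single count in all libraries, and Plat averaged at most 0.114 CPM in any group. Serpine2, which encodes an inhibitor of urokinase and thrombin, fell with Dex against Ctrl at day 9 (107 against 266 CPM, -1.35 ± 0.12, edgeR adjusted p = 2.9e-07) and with IL27 against Ctrl (168 against 266 CPM, -0.70 ± 0.12, edgeR adjusted p = 1.2e-04). Gpld1, a phospholipase that cuts lipid-anchored proteins from membranes, rose with Dex in WT cells at day 3 (23.99 against 8.19 CPM, 1.55 ± 0.19, edgeR adjusted p = 3.9e-05) and at day 9 (148 against 18.2 CPM, 3.00 ± 0.16, edgeR adjusted p = 4.6e-09). Unlike Plaur, Gpld1 also rose with IL27 alone (93.2 against 18.2 CPM, 2.32 ± 0.16, edgeR adjusted p = 3.7e-08).

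Among partners of the receptor, the integrin chain gene Itgav, whose protein binds vitronectin, rose with Dex at day 3 in WT cells (42.7 against 27.9 CPM, 0.62 ± 0.16, edgeR adjusted p = 0.0193) and at day 9 (109 against 39.8 CPM, 1.42 ± 0.12, edgeR adjusted p = 1.8e-07). Itgb1, which encodes the integrin beta-1 chain, fell with IL27 (23.5 against 54.5 CPM, -1.25 ± 0.13, edgeR adjusted p = 1.6e-06). Itgam, which encodes the alpha chain of Mac-1, a known partner of the receptor on myeloid cells, averaged 9.75 CPM with Dex+IL27, 2.06 CPM with Dex, 1.73 CPM with IL27 and 0.190 CPM in Ctrl of day 9. The summed macrophage and monocyte markers also differed between these groups, at 153 to 168 CPM with Dex+IL27, 134 to 141 CPM with Dex, 94.1 to 108 CPM with IL27 and 67.9 to 73.1 CPM in Ctrl. That sum was mostly Ctss, which rose with Dex (0.90 ± 0.07, edgeR adjusted p = 9.3e-08) and with IL27 (0.33 ± 0.07, edgeR adjusted p = 9.2e-04) against Ctrl. Cd68 rose too, with Dex (2.10 ± 0.22, edgeR adjusted p = 1.3e-06) and with IL27 (2.41 ± 0.21, edgeR adjusted p = 2.9e-07). Cd14 passed in neither (-0.76 ± 0.43 and -0.43 ± 0.42), and Lyz2 and Csf1r stayed under 1 CPM in every library. A link between Itgam and these markers was not tested. The receptor's own family moved both ways with Dex in WT cells at day 3. Ly6c2 fell (41.8 against 94.7 CPM, -1.18 ± 0.13, edgeR adjusted p = 1.1e-05), as did Lypd6b (-1.76 ± 0.34, edgeR adjusted p = 0.00249). Ly6a (0.41 ± 0.06, edgeR adjusted p = 1.3e-04) and Ly6e (0.19 ± 0.05, edgeR adjusted p = 0.0116) rose. With Dex against Ctrl at day 9 Lypd6b went the other way (1.41 ± 0.55, edgeR adjusted p = 0.0401). Ly6c2 (-2.92), Ly6a (0.53) and Ly6e (0.72) kept their direction. However, Ly6a, Ly6c1 and Ly6c2 have close copies whose reads may be split between them.

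Among relatives of Lrp1, Vldlr, a lipoprotein receptor, rose with Dex against Ctrl at day 9 (17.3 against 3.64 CPM, 2.21 ± 0.20, edgeR adjusted p = 3.7e-07) and with IL27 against Ctrl (18.2 against 3.64 CPM, 2.28 ± 0.20, edgeR adjusted p = 2.6e-07). None of the 11 tested genes of the LDL receptor list passed with Dex in WT cells at day 3, where Lrp1 was 8.29-fold higher. Lrp11 had 0 counts over the 3 Dex+IL27 libraries, 8 over the Dex libraries and 39 over the IL27 libraries. Furin, the protease that cuts the LRP1 precursor into its chains, rose with Dex in WT cells at day 3 (127 against 74.6 CPM, 0.77 ± 0.14, edgeR adjusted p = 0.00118) and at day 9 (56.2 against 29.6 CPM, 0.90 ± 0.16, edgeR adjusted p = 1.8e-04). Like Plaur, it was lower with IL27 than in Ctrl (8.15 against 29.6 CPM, -1.90 ± 0.17, edgeR adjusted p = 3.5e-07) and lower with Dex+IL27 than with Dex (14.4 against 56.2 CPM, -1.95 ± 0.16, edgeR adjusted p = 1.4e-06). The chaperone genes of the LRP1 ligand list, Calr, Hsp90aa1, Hsp90b1 and Hspa8, fell with Dex against Ctrl at day 9 by 1.34, 1.51, 1.08 and 0.69 on the log2 scale, with edgeR adjusted p-values of 2.4e-08, 7.4e-08, 1.7e-08 and 7.0e-09. They fell with IL27 against Ctrl as well (-1.21, -1.42, -0.85 and -0.58, edgeR adjusted p-values of 6.1e-08, 1.3e-07, 1.3e-07 and 3.7e-08). With Dex in WT cells at day 3 none of them passed (-0.15, -0.04, -0.11 and -0.05).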

How the data were processed

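The first deposited table holds estimated counts, which RSEM made per gene for the authors and which carry no normalization. The other deposited table holds FPKM values that the authors scaled by TMM, as its name says. The submitters' processing notes name TopHat, RSEM, DESeq and the mm9 build; versions and the annotation are not given in the sources used here.

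Groups came from the labels. Estimated counts were rounded and tested with edgeR 4.0.16 (R 4.3.3), a two-sided quasi-likelihood F-test with TMM scaling, a prior count of 0.125 and filterByExpr (minimum count 10, minimum total 15). The 12 libraries of a day shared a fit, and the day 9 minus day 3 difference used all 24. Calls were Benjamini-Hochberg adjusted p under 0.05 over all genes tested. Intervals of log2 changes are 95% intervals from the fit. Alternatives were DESeq2 1.42.0, limma 3.58.1 on log2(FPKM + 1) or log2(FPKM + 0.1) with a minimum mean of 1 FPKM or none, other scalings, no filter, other sets of libraries, a replicate block, and each replicate left out.

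The members, lists and tests were chosen with earlier results of these data known. Named by rule were the members, Nr3c1 and the genes most like each member. So were up to 4 genes per list and comparison with the lowest p among those passing. Plg, Plat and the cell type markers were named for their roles. A listed gene that the rule named is not reported here. The fits were also run on simulated counts with the same spread for every gene and with changes smaller than Plaur's WT Dex responses. That check does not cover changes as large as those of Plaur.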

Additional observations from a re-analysis of the deposited data

How the results depend on the processing

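Plaur kept its direction and stayed past the threshold under all alternatives run with IL27 against Ctrl (-4.87 to -1.41 on the log2 scale) and with Dex+IL27 against Dex (-2.87 to -2.70). Lrp1 did so with Dex+IL27 against Dex (-1.38 to -1.04). For Plaur, both comparisons share libraries with the Dex response it was chosen for, so its p-values there are not free of that choice. With Dex+IL27 against IL27, a description, Plaur ranged from 3.45 to 7.41 and Lrp1 from 0.70 to 1.10. Neither gene passed under any alternative with cKO Dex against cKO Ctrl or cKO Ctrl against WT Ctrl. On log2(FPKM + 1), with or without the filter, Plaur had 3.08 for WT Dex against WT Ctrl at day 3, 4.74 for Dex against Ctrl at day 9 and 1.67 for the day 9 minus day 3 difference, and Lrp1 had 1.36, 1.501 and, with its sign turned, 0.14, and -1.23 for the difference of Dex effects between cKO and WT. A pseudocount compresses the changes of low values, and Lrp1 was under 1 FPKM in 3 of the 4 day 3 groups. On log2(FPKM + 0.1) Lrp1 had 2.65 for WT Dex at day 3, -2.26 for cKO minus WT and -0.80 for day 9 minus day 3. The Plaur Dex effect with IL27 minus that without turned to -1.29 on log2(FPKM + 1), was 0.61 on log2(FPKM + 0.1), and ranged from 1.10 to 2.09 as each library was left out.

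Leaving out each library in turn, Lrp1 ranged from -2.73 to -2.36 for cKO minus WT, and Plaur from 2.02 to 2.34 for day 9 minus day 3. The IL27 effect on Lrp1 ranged from -0.46 to -0.26 (edgeR adjusted p 0.0118 to 0.150), and missed the threshold on log2(FPKM + 1) (-0.23, limma adjusted p 0.107, or 0.190 without the filter), on log2(FPKM + 0.1) (-0.34, 0.0668) and in a fit of all 24 libraries (-0.31, edgeR adjusted p 0.0580).

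Counts over all genes moved most in the small day 3 comparisons. WT Dex against WT Ctrl gave 1129 genes, but 722 without WT Ctrl replicate 2 and 691 without WT Dex replicate 3. The cKO Dex comparison gave 0, but 26 without the filter and 1 each with the block, with only the groups compared and without cKO Ctrl replicate 5. The difference of Dex effects gave 353, but 765 without the filter, 556 by DESeq2, 185 by limma without the filter, 213 in a fit of all 24 libraries, 235 without WT Ctrl replicate 2 and 224 without WT Dex replicate 3. The cKO Ctrl comparison gave 283, but 793 without the filter, 533 by DESeq2, 101 by limma without the filter, 129 in a fit of all 24 libraries and 63 to 177 as single libraries were left out.

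Replicate numbers recur across groups. Deviations of same-numbered libraries correlated between -0.18 and 0.30 over 24 pairs, with 5 above 0.1, so the numbers were not taken to pair samples. Only between cKO Ctrl and cKO Dex did all 3 cKO Ctrl libraries correlate best with their own number, which is a hint from the data and not from the design. Seen from cKO Dex this did not hold. There, replicate 5 correlated more with cKO Ctrl replicate 4 (0.058) than with cKO Ctrl replicate 5 (0.039). With a replicate block Plaur had 3.20 and Lrp1 3.04 for WT Dex at day 3, 5.33 and 1.92 for Dex at day 9, and the IL27 effect on Lrp1 was -0.35 (edgeR adjusted p 0.0335). The block changed no call of either gene. Depth limits Plau, with 37 counts in all, and Plaur with IL27.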
